A study of Mus musculus with 12 samples.

Results

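Interferon signalling was followed through 9 genes: the receptor chains Ifnar1 and Ifngr1, the kinases Jak1 and Jak2, the transcription factors Stat2 and Irf9, and the interferon regulatory factors Irf1, Irf3 and Irf7. The genes were chosen by symbol from the 48709 genes counted in each library, and each symbol matched 1 gene. RNA came from primary hippocampal cultures of E17 embryos of CD1 mice, which hold neurons and glial cells. Cultures received lipid nanoparticles at day 10 in vitro, loaded with a miR-148a-3p mimic or with a negative control oligonucleotide, and were harvested 48 h later at day 12. The 6 mimic and 6 control libraries share the strain, the embryonic age, the nanoparticle and the times, and differ in the oligonucleotide. According to the study's methods, hippocampi from the embryos of a pregnant mouse were pooled for a culture preparation. The labels do not tie libraries to separate preparations, so the p-values measure the spread between these libraries.

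Type I interferons bind a receptor made of IFNAR1 and IFNAR2, and interferon gamma binds a receptor made of IFNGR1 and IFNGR2. Both receptors work through Janus kinases, which phosphorylate STAT proteins. STAT2 and IRF9 belong to the complex ISGF3, which binds the interferon-stimulated response element (ISRE), whereas STAT dimers bind the gamma-activated site (GAS). IRF3 and IRF7 act before the receptor, since they switch on interferon genes after a sensor has met foreign RNA or DNA, and IRF1 is a factor that cells make in response to interferon. In the brain, neurons, astrocytes and microglia all carry these receptors and can respond.

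The comparison asks which transcripts change when miR-148a-3p is raised. The oligonucleotides are shown because a microRNA recognises a transcript through its seed, bases 2 to 8, given here in capitals. The first sequence is the mature mouse microRNA in RefSeq (GRCm38.p6, chr6:51269829-51269850, minus strand), to which the mimic in the study's reagent list is identical, and the second is the negative control from the same list.
miR-148a-3p: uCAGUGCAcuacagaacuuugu
negative control: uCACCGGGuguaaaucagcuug
The series text calls the control a siRNA, so the second sequence holds for these libraries only if the listed control was the one given.

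Of the 9 genes, 4 fell in the mimic libraries and none rose. In the fitted level Irf1 fell by 30.3%, Stat2 fell by 14.7%, Irf9 fell by 13.6% and Jak1 fell by 7.28%. Neither receptor chain, nor Jak2, nor Irf3, nor Irf7 passed the test. All 9 genes passed the filter of at least 5 counts in at least 6 libraries. The test was the edgeR quasi-likelihood F-test over all 18847 genes that passed the filter, and an adjusted p under 0.05 is named a call. Among all tested genes 22.2% were called, 10.7% as lower and 11.5% as higher in mimic, against 44.4% of the 9 genes called, all of them lower. At an unadjusted p under 0.05 the same count of 4 was found, with 0 genes higher. The median log2 fold change of the 9 genes was -0.11, beside -0.012 over all tested genes. Without the sign, the median was 0.12 over all tested genes and 0.30 over called genes. Jak1, at -0.11, was smaller in size than the first, and Stat2 and Irf9, at -0.23 and -0.21, were smaller than the second.

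**Figure D1:**
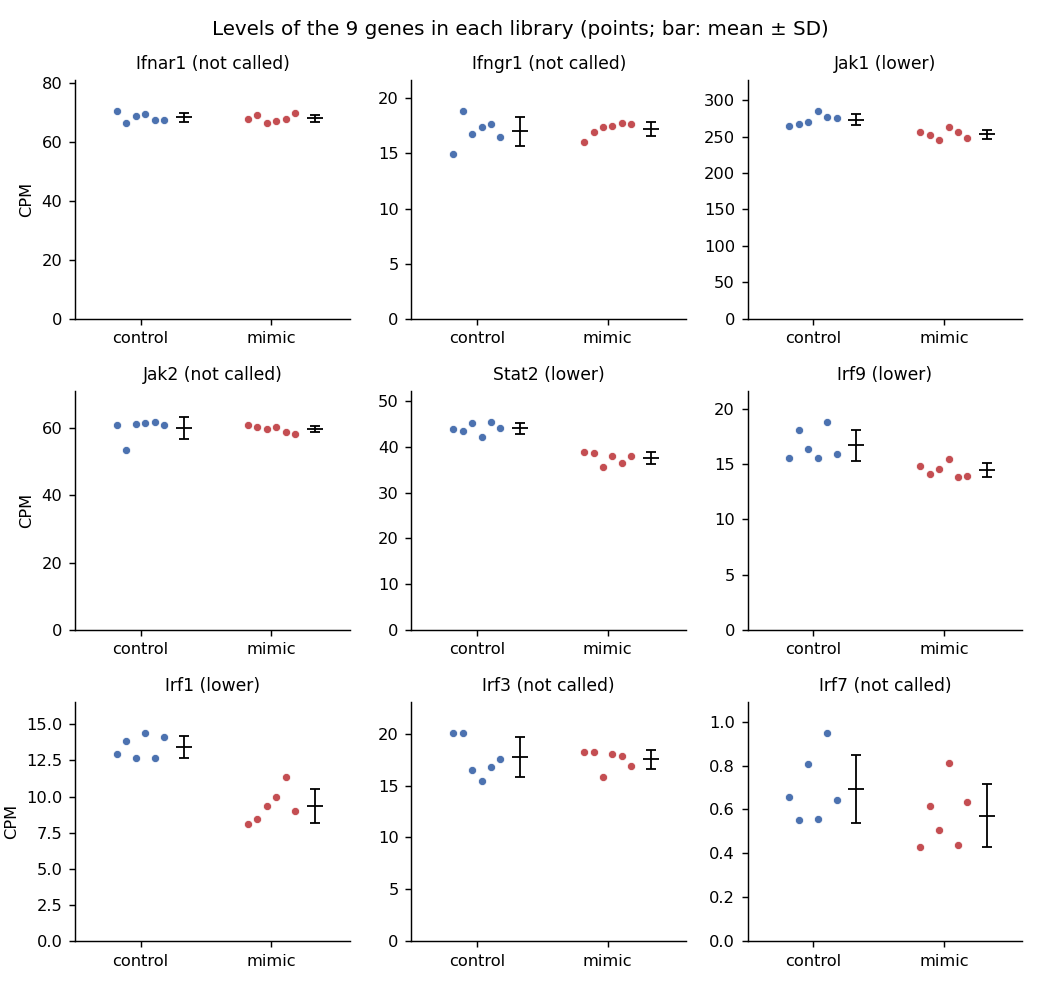
Level of each of the 9 genes in CPM (y axis from 0, one scale for each gene) in the 6 control and 6 mimic libraries. Points are libraries and the bar beside them is the mean ± SD. In Jak1, Stat2, Irf9 and Irf1 all mimic points lie below all control points, with the smallest gap in Irf9 (15.45 CPM in the highest mimic against 15.53 CPM in the lowest control library), and in the other 5 genes the groups overlap.

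The unit of level is CPM, which scales a gene's counts by the TMM-adjusted library total. To set the genes beside each other, the CPM was divided by the length of all annotated exons of a gene, which gives CPM per kilobase. In control libraries Jak1 had the highest level of the 9, at 37.8 ± 1.05 CPM per kilobase (SD, n = 6). Jak2 and Ifnar1 followed at 11.9 ± 0.636 and 11.5 ± 0.257 CPM per kilobase, and their libraries overlapped. Stat2 stood below them at 7.43 ± 0.209. Ifngr1 and Irf3 came next at 5.98 ± 0.463 and 5.15 ± 0.557 and also overlapped, as did Irf1 and Irf9 at 3.38 ± 0.193 and 3.10 ± 0.260 CPM per kilobase. Irf7 was the lowest at 0.184 ± 0.0411. The order differed in mimic libraries at 1 place: Irf9, at 2.68 ± 0.118, had a higher mean than Irf1, at 2.35 ± 0.292 CPM per kilobase, and their libraries overlapped there too.

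Ifnar1 (ENSMUSG00000022967, mm10 chromosome 16, 91485238 to 91507441) encodes a chain of the type I receptor. Its control libraries lay between 66.2 and 70.4 CPM, with a median of 68.0, and its mimic libraries between 66.3 and 69.5 CPM, with a median of 67.7. The groups overlapped almost completely. On the log2 scale the difference, mimic minus control, was -0.0067 ± 0.030 (SE), with an adjusted p of 0.914 in edgeR and a 95% interval from -0.071 to 0.058. Its partner chain Ifnar2 had 10.02 ± 0.662 CPM in control libraries and 9.28 ± 0.374 CPM in mimic libraries (SD, n = 6), a log2 fold change of -0.11 with an interval from -0.23 to 0.012 (edgeR adjusted p = 0.202).

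Ifngr1 (ENSMUSG00000020009, chromosome 10, 19591949 to 19610229) encodes the chain that binds interferon gamma. Its lowest, median and highest values were 14.9, 17.1 and 18.9 CPM in control and 16.0, 17.4 and 17.8 CPM in mimic. All mimic libraries lay inside the range of the controls. The fitted log2 fold change was 0.013 ± 0.053 (SE), with an adjusted p of 0.902 in edgeR and an interval from -0.099 to 0.12. Ifngr2, the second chain, had 109.7 ± 0.980 CPM in control libraries and 108 ± 2.74 CPM in mimic libraries (SD, n = 6), a log2 fold change of -0.020 with an interval from -0.082 to 0.042 (edgeR adjusted p = 0.693). The intervals of the 4 receptor chains together ran from -0.23 to 0.12.

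Jak1 (ENSMUSG00000028530, chromosome 4, 101152367 to 101265282, minus strand) encodes a kinase used by both interferon receptors and by receptors of the interleukin-6 family. Control libraries ran from 265 to 285 CPM with a median of 273, and mimic libraries from 245 to 263 CPM with a median of 254. The groups did not overlap. In 13.3% of all tested genes the 6 mimic libraries lay on 1 side of the 6 control libraries, against 4 of these 9 genes. Jak1 had a fitted log2 fold change of -0.11 ± 0.031 (SE), with an adjusted p of 0.0166 in edgeR. With every gene that had at least 1 count in the test, its adjusted p was 0.0766.

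Jak2 (ENSMUSG00000024789, chromosome 19, 29251828 to 29313080) encodes the kinase that sits on IFNGR2. Its values were 53.5, 61.1 and 61.8 CPM at the lowest, median and highest control library and 58.3, 60.1 and 60.8 CPM in mimic. Control replicate 2 stood alone at 53.5 CPM, the other controls being above 60.9. Its log2 fold change was -0.0067 ± 0.038 (SE), with an adjusted p of 0.933 in edgeR and an interval from -0.087 to 0.074. Without both shallowest control libraries, replicates 1 and 2, it was -0.039 (edgeR adjusted p = 0.343). Of the other Janus kinases, Jak3 fell from 10.9 ± 1.05 to 8.89 ± 0.570 CPM (SD, n = 6; log2 fold change -0.29 ± 0.068 SE, edgeR adjusted p = 0.00497), and Tyk2, the kinase on IFNAR1, was at 0.045 ± 0.049 in log2 fold change (SE; edgeR adjusted p = 0.578).

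Stat2 (ENSMUSG00000040033, chromosome 10, 128270559 to 128292849) encodes the ISGF3 subunit that carries the activation domain. Its control libraries had 42.0 to 45.4 CPM, with a median of 44.0, and its mimic libraries 35.6 to 38.8 CPM, with a median of 38.0. No library crossed the gap between the groups. The difference in log2 level was -0.23 ± 0.036 (SE), with an adjusted p of 0.000147 in edgeR. The call held without any 1 library, with adjusted p-values from 5.13e-05 to 0.000651.

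Irf9 (ENSMUSG00000002325, chromosome 14, 55603571 to 55610030) encodes the DNA-binding subunit of ISGF3. Control libraries had 15.5, 16.2 and 18.8 CPM at the lowest, median and highest, and mimic libraries 13.8, 14.3 and 15.5 CPM. The highest mimic library, replicate 4, reached almost the level of the lowest control library. In log2 terms the change was -0.21 ± 0.057 (SE), with an adjusted p of 0.0121 in edgeR. Exons of Irf9 share 123 bases, or 2.28% of its exonic length, with Rnf31 on the same strand, which averaged 792 counts beside 465 for Irf9.

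STAT factors moved in both directions. Stat3, which carries interleukin-6 signals, fell from 146 ± 7.77 to 124 ± 4.87 CPM (SD, n = 6; log2 fold change -0.24 ± 0.040 SE, edgeR adjusted p = 0.000343). Stat5b, a factor used by growth hormone and many cytokines, rose from 14.7 ± 1.098 to 18.55 ± 0.804 CPM (log2 fold change 0.33 ± 0.054 SE, edgeR adjusted p = 0.000209). Of the 5 STAT genes tested here, Stat2 included, 2 were lower, 1 was higher and 2 were not called.

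Irf1 (ENSMUSG00000018899, chromosome 11, 53770014 to 53778374) had the largest log2 fold change of the 9 genes. Its libraries had 12.7, 13.4 and 14.4 CPM at the lowest, median and highest control library and 8.11, 9.15 and 11.3 CPM in mimic. All mimic libraries were below all controls, and mimic replicate 5, at 11.3 CPM, was the nearest to them. The fall amounted to -0.52 ± 0.074 in log2 fold change (SE), with an adjusted p of 5.07e-05 in edgeR and an interval from -0.68 to -0.37. Irf1 was also the 1 gene of the 9 that was called when the test asked for a change beyond 1.2-fold (adjusted p = 0.00714). Irf2, which binds the same DNA element and is known as an antagonist of IRF1, rose from 15.8 ± 1.01 to 17.7 ± 0.534 CPM (log2 fold change 0.17 ± 0.049 SE, edgeR adjusted p = 0.0197), with overlapping groups. Of the 7 IRF genes tested, 2 were lower, 1 was higher and 4 were not called. Exons of Irf1 share 135 bases with Gm17334 on the opposite strand, which averaged 4.92 counts.

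Irf3 (ENSMUSG00000003184, chromosome 7, 44997648 to 45002848) encodes a factor that lies ready in the cytoplasm and is activated by phosphorylation. Its control libraries ran from 15.4 to 20.1 CPM with a median of 17.2, and its mimic libraries from 15.9 to 18.2 CPM with a median of 17.96. The highest controls, at 20.05 and 20.06 CPM, were the shallowest ones, replicates 1 and 2. Its fitted log2 fold change was -0.011 ± 0.066 (SE), with an adjusted p of 0.937 in edgeR and an interval from -0.15 to 0.13. Without these libraries it was 0.080 (edgeR adjusted p = 0.276). Of its exons 88 bases are shared with Bcl2l12 on the opposite strand, and whether the counting used the strand is not given in the sources used here.

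Irf7 (ENSMUSG00000025498, chromosome 7, 141262706 to 141266481, minus strand), which is itself raised by ISGF3 in responding cells, was near the limit of detection, with 13 to 31 counts in a library and 123 counts over the controls against 106 over the mimic libraries. Control libraries had 0.552 to 0.948 CPM, with a median of 0.650, and mimic libraries 0.430 to 0.813 CPM, with a median of 0.560. The groups overlapped. Its log2 fold change was -0.30 ± 0.20 (SE), with an adjusted p of 0.339 in edgeR and an interval from -0.72 to 0.13, so that at this depth a fall as large as that of Irf1 could not be told from no change. Leaving out 1 library moved it to between -0.42, without mimic replicate 4, and -0.18, without control replicate 5, and neither value passed the test. Its exons share 45 bases with Phrf1 on the opposite strand, which averaged 2115 counts.

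**Figure D2:**
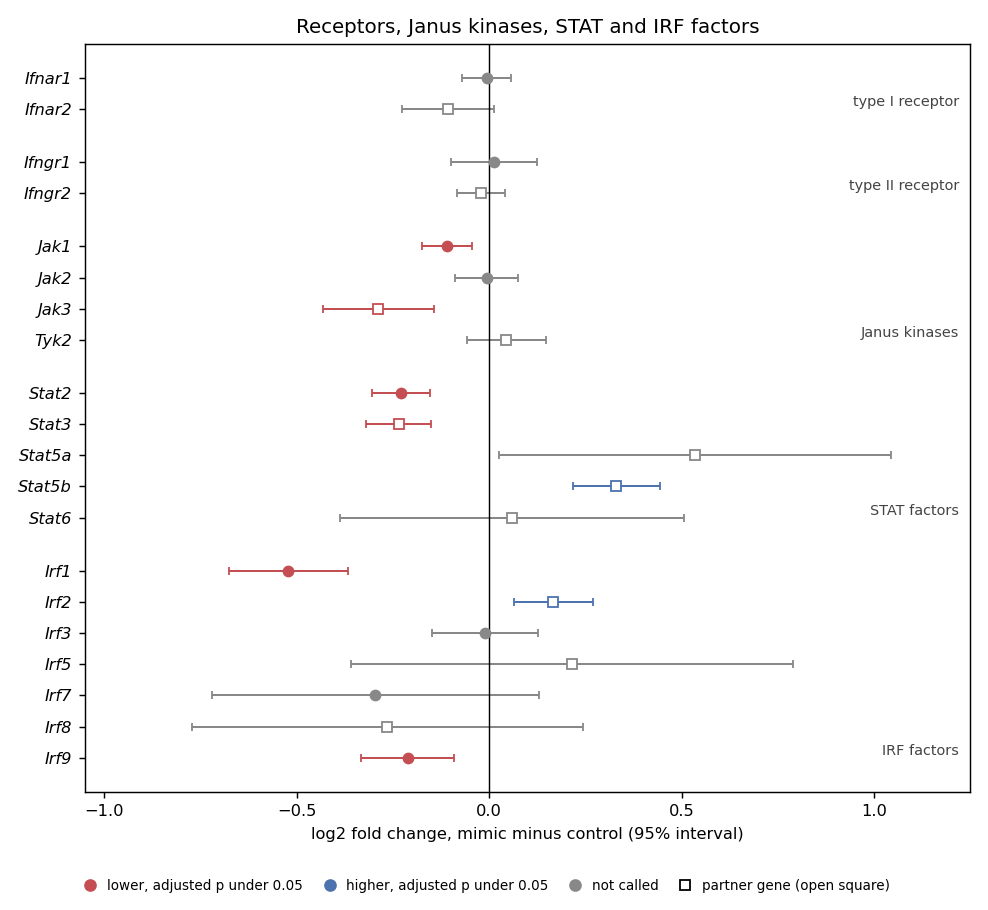
Log2 fold change, mimic minus control (x axis), with its 95% interval for the tested receptor chains, Janus kinases, STAT and IRF factors. Filled circles are the 9 genes and open squares are their partners; red marks genes called lower, blue genes called higher and grey genes not called. The 4 receptor chains lie between -0.11 and 0.013, whereas Irf1 and Stat5b lie at -0.52 and 0.33.

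Pairs of the 9 genes were then compared inside each library, which does not depend on how libraries were scaled. The log2 ratio of their counts, each with 0.5 added, was compared between groups by a two-sided exact permutation test over all relabellings of the 12 libraries, with Benjamini-Hochberg adjustment over 6 ratios. The pairs were chosen with earlier results of these data known. Where 1 gene of a pair was called and the other lay near 0, the ratio restates that call. This holds for Irf1 to Irf3 (log2 fold changes -0.52 and -0.011), Jak2 to Jak1 (-0.0067 and -0.11) and Irf9 to Irf3 (-0.21 and -0.011). The ratio of Irf1 to Irf3 was lower by 0.51 in mimic on the log2 scale, at -0.91 ± 0.20 against -0.40 ± 0.18 in control (SD, n = 6; exact p = 0.00216, the smallest these samples can give; adjusted p = 0.0130). The ratio of Jak2 to Jak1 was higher by 0.10, at -2.08 ± 0.037 against -2.19 ± 0.070 (SD, n = 6; exact p = 0.00649, adjusted p = 0.0195). Leaving out control replicate 2, where Jak2 was low, left a difference of 0.079 (exact permutation test, adjusted p = 0.0390).

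The ratio of Irf9 to Stat2 was -1.38 ± 0.073 in mimic and -1.40 ± 0.11 in control (SD, n = 6), a difference of 0.021 (exact p = 0.667, adjusted p = 0.719), with both genes lower in mimic. The ratio of Ifngr1 to Ifnar1 differed by 0.024 (exact permutation p = 0.719). For Irf9 to Irf3 the difference was -0.19 (exact permutation p = 0.0476, adjusted p = 0.0952), which became -0.25 with an adjusted p of 0.0173 without control replicate 1. For Irf7 to Irf3 it was -0.27 (exact permutation p = 0.221, adjusted p = 0.331), and -0.16 without control replicate 5.

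**Figure D3:**
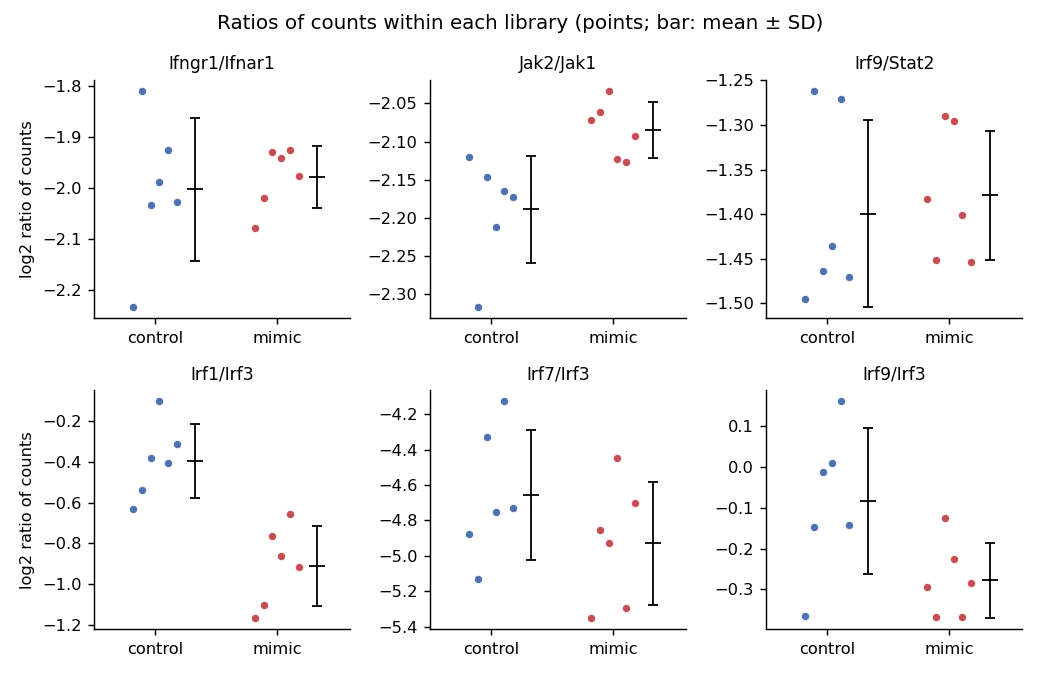
Log2 ratio of the counts of 2 genes within a library (y axis, not starting at 0) for 6 pairs, in the 6 control and 6 mimic libraries. Points are libraries and the bar beside them is the mean ± SD. The groups are apart in Irf1/Irf3 (highest mimic library -0.65, lowest control library -0.63) and overlap only slightly in Jak2/Jak1, and they overlap in the other ratios.

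The 3 prime untranslated regions (UTRs) were searched for matches to both seeds, either to bases 2 to 8 (TGCACTG for the mimic) or to bases 2 to 7 with an A next to them (GCACTGA). In the longest annotated UTR of each gene, 3 of the 9 genes held a match for the mimic, 1 each, and none held one for the negative control. Among 15082 tested genes with such a UTR, 21.9% held a match for the mimic and 4.42% one for the control. The matches are shown in capitals with the bases around them, on the plus strand of GRCm38, to set them beside the changes of their genes.
Ifnar1, chr16:91506216-91506242: tgttgctcgcTGCACTGcgcctttgta
Stat2, chr10:128292436-128292462: tgtgaggaccTGCACTGtggccgttct
Irf9, chr14:55609573-55609599: gtgattaagaGCACTGActgcccttct
Ifnar1 and Stat2 carry the match to bases 2 to 8, and Irf9 that to bases 2 to 7 with the A. Of these, Stat2 and Irf9 fell and Ifnar1 did not pass the test. Irf1 and Jak1 fell with no match in UTRs of 944 and 1128 bases. A match is a description of the letters and not a shown site.

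Promoters from RefSeq (GRCm38.p6), 250 bases before to 50 after a start, were available for all 9 genes, with 11 promoters in all because Irf1 and Irf9 have 2 starts each. The ISRE was searched as GAAANNGAAA or TTTCNNTTTC, which covers both strands, and the GAS as TTCNNNGAA, which reads the same on both strands. These letters were found in 3.44% and 8.30% of all 32851 promoters. In the 9 genes the ISRE letters were found in the Stat2 promoter, starting 222 bases before the start, and the GAS letters in 1 promoter of Irf1, 90 bases before the start, and in that of Ifnar1, 5 bases before it. The promoters of Stat2 and Irf1 are shown, with these letters in capitals, because both genes held a match and fell. Ifnar1 held a match and did not pass the test, and its promoter is not shown. Whether a match plays a part in a fall was not tested.
Stat2, chr10:128270248-128270547, plus strand: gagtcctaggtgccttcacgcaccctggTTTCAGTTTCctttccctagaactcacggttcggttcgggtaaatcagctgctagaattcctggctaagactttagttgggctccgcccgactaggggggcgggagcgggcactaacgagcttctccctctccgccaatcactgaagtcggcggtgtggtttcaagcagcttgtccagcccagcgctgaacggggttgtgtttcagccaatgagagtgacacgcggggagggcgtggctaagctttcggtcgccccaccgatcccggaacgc
Irf1, chr11:53769764-53770063, plus strand: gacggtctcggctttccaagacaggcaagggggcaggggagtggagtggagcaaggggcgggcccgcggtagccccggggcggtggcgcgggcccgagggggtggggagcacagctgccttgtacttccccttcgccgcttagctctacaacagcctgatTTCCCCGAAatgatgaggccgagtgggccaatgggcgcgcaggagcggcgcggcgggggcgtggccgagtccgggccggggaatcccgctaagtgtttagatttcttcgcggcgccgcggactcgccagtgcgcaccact
No match was found in the windows of Irf9 and Jak1, which fell, nor in those of Ifngr1, Jak2, Irf3 and Irf7.

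The remaining genes of the pathway were counted by role, from lists chosen with earlier results of these data known. Of 76 genes other than the 9, 50 could be tested, with a median log2 fold change of -0.014. Beside 10.7% lower and 11.5% higher of all tested genes, 9 of the 50 were lower and 6 higher in mimic, or 18% and 12%. The count of higher genes changed with the shallow controls left out: it was 10 without control replicate 1, with 9 lower, and 11 without control replicates 1 and 2, with 10 lower. None of the 21 interferon ligand genes could be tested: no library held more than 3 counts of any of them, and 17 were at 0 in every library. The other 4 were Ifng, with 8 counts over the controls and 3 over the mimic libraries, Ifnz with 2 and 5, Ifnb1 with 1 and 2, and Ifnk with 2 and 0. At this depth a difference in interferon transcripts was not detectable.

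Of 16 sensors and kinases that act on IRF3 and IRF7, 2 were lower (12.5%) and 2 higher. These counts are near the shares of all tested genes, 10.7% lower and 11.5% higher. Ddx58, which encodes the RNA sensor RIG-I, fell from 11.9 ± 2.29 to 6.63 ± 0.779 CPM (SD, n = 6; log2 fold change -0.86 ± 0.11 SE, edgeR adjusted p = 3.37e-05). Irak1, a kinase of Toll-like receptor signalling, rose from 36.1 ± 2.05 to 44.4 ± 1.496 CPM (log2 fold change 0.30 ± 0.042 SE, edgeR adjusted p = 4.10e-05). Of 16 negative regulators, 2 were lower (12.5%, also near the share of all tested genes) and none higher. Among them Socs3, an inhibitor that STAT3 induces, fell from 6.40 ± 0.863 to 4.63 ± 0.295 CPM (SD, n = 6; log2 fold change -0.47 ± 0.087 SE, edgeR adjusted p = 0.000621).

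Of 6 receptors of the interleukin-6 family, which also signal through Jak1, 3 were lower (50%) and 2 higher. Of all tested genes 10.7% were lower and 11.5% higher. Il6st, which encodes the shared chain gp130, fell from 127 ± 3.65 to 87.4 ± 4.61 CPM (SD, n = 6; log2 fold change -0.54 ± 0.038 SE, edgeR adjusted p = 1.82e-08). Osmr, the oncostatin M receptor, fell from 44.8 ± 5.34 to 22.3 ± 4.62 CPM (log2 fold change -1.003 ± 0.12 SE, edgeR adjusted p = 2.16e-05). Lifr, the leukemia inhibitory factor receptor, went the other way, from 28.8 ± 3.37 to 38.6 ± 1.33 CPM (SD, n = 6; log2 fold change 0.42, edgeR adjusted p = 9.88e-05), and so did Il11ra1, the interleukin-11 receptor, from 5.98 ± 1.01 to 7.48 ± 0.385 CPM (log2 fold change 0.33, edgeR adjusted p = 0.0195), with all mimic libraries above all controls in both.

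Of 27 tested genes known as targets of ISGF3, 19 were lower (70.4%, beside 10.7% of all tested genes) and 1 was higher. The count of higher genes was 2 without control replicate 1 or without mimic replicate 5. The 27 genes had a median log2 fold change of -0.67, and Irf7, which is on this list, was not called. Bst2, which encodes the antiviral protein tetherin, fell from 4.78 ± 1.06 to 3.01 ± 0.826 CPM (SD, n = 6; log2 fold change -0.67 ± 0.17 SE, edgeR adjusted p = 0.00840). Rsad2, which encodes the antiviral enzyme viperin, went the other way, from 3.62 ± 0.407 to 6.72 ± 0.873 CPM (log2 fold change 0.88 ± 0.096 SE, edgeR adjusted p = 3.11e-06). Of 25 tested targets of STAT dimers and IRF1, 18 were lower (72%) and none higher, with a median of -0.57, and Irf1 is among them. Gbp2 and Gbp5, which encode guanylate-binding proteins, had log2 fold changes of -1.57 ± 0.16 and -1.71 ± 0.18 (SE, edgeR adjusted p = 3.36e-06 and 2.36e-06). In promoters, the ISRE letters were about as frequent in the first list (45.5% of 22) as in the second (43.5% of 23), and the GAS letters were in 22.7% and 34.8% of them.

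**Figure D4:**
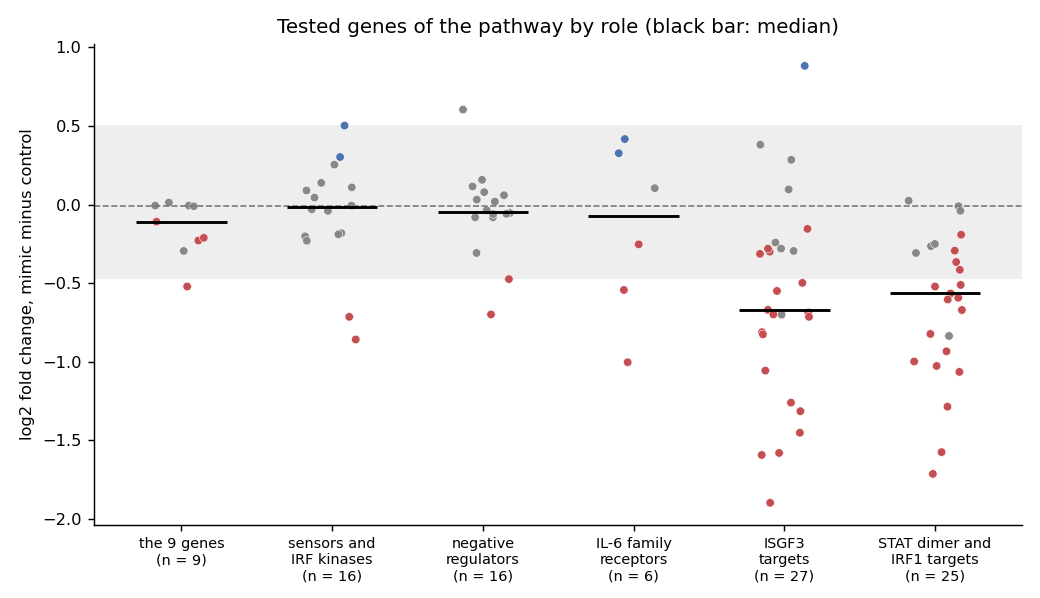
Log2 fold change, mimic minus control (y axis), of the 9 genes and of the tested genes of 5 other lists, with red for genes called lower, blue for genes called higher and grey for genes not called. The black bar is the median of a list, the dashed line the median of all tested genes (-0.012) and the grey band their 5th to 95th percentile (-0.47 to 0.50). The medians of the target lists are -0.67 and -0.57, and Irf1 is the 1 gene of the 9 below the band of single genes.

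In bulk RNA, fewer cells of a type and less RNA per cell cannot be told apart, so markers of cell types were read in the same libraries, whose labels name neurons. The summed level of 10 neuron markers was 9015 to 9832 CPM in control and 9280 to 9712 CPM in mimic, with 2 lower (Tubb3 fell by 19.8% and Stmn2 fell by 13.1%, groups apart) and 1 higher (Camk2a, by 13.1%). That of 10 astrocyte markers was 5161 to 5683 against 6300 to 6725 CPM, with 8 higher and 1 lower. They did not move together: Gfap fell by 46.3% and Slc1a3 rose by 98.9%, with groups apart in both. Of 8 oligodendrocyte lineage markers 5 were higher and 1 lower, with sums of 393 to 681 and 768 to 963 CPM. The 681 CPM came from control replicate 1, and the next highest control had 422 CPM. Of 15 microglia markers, 14 were tested, 3 were lower and none higher, and their sum was 17.5 to 21.9 CPM in control and 14.4 to 39.1 CPM in mimic, with mimic replicate 2 highest. Of 8 mesenchymal markers 2 were lower, Acta2, which fell by 86.2%, and Tagln, which fell by 70.1%, both genes of contractile cells. The other 6 were not called and ranged from -29.0% (Col1a1) to 34.2% (Dcn), and the sum of the 8 was 201 to 268 CPM against 98.1 to 226 CPM. For 8 endothelial markers, of which 6 were tested and 2 were lower, it was 48.1 to 71.6 against 29.8 to 53.3 CPM. Kdr made up most of that sum, with a mean of 58.6 ± 8.31 against 37.6 ± 9.38 CPM (SD, n = 6), whereas Pecam1, Cdh5, Flt1, Tek and Ly6c1 averaged under 1 CPM in both groups and Cldn5 was near 0. Lymphocyte markers summed to at most 0.485 CPM. The part of these shifts in the falls of Irf1, Stat2, Irf9 and Jak1 was not tested.

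The tested genes whose level followed each of the 9 most closely over the 12 libraries, among those with at least 100 counts on average, are given as a description, with Pearson's r of log2 CPM, which includes the difference between the groups. For Irf1 they were Ccn1 and Tgfb3, both with r = 0.97, and both fell in mimic, by 0.94 and 0.66 on the log2 scale. For Jak1 they were Ak4 and Postn, both with r = 0.94. For Stat2 they were D430041D05Rik and Vps33a (r = 0.96 and 0.95), and for Irf9 Tep1 and Ankmy2 (r = 0.93 and 0.90). With the mean of each group taken out, r was 0.57 and 0.63 for the genes nearest to Stat2. It was 0.83 and 0.73 for those of Irf9, 0.77 and 0.79 for those of Jak1, and 0.84 and 0.87 for those of Irf1. The genes nearest to Irf3 were Brpf1 and Ninl (r = 0.93 and 0.90), and to Jak2 Ddhd1 and 2810402E24Rik (r = 0.92 and 0.88). Those nearest to Ifnar1 were A530017D24Rik and Prrg2 (r = 0.90 and 0.87), to Ifngr1 Mtrf1 and Morc4 (r = 0.88 and 0.82), and to Irf7 Sla and Gpn1 (r = 0.84 and 0.81). By rank the likeness was weakest for Morc4 and 2810402E24Rik, with Spearman's rho of 0.40 and 0.52. None of the genes nearest to the 5 that did not pass the test was called. Because r includes the difference between the groups, genes chosen by it tend to share that difference, so this is no separate result.

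Library totals ranged from 20018234 to 37149112 counts, with control replicates 1 and 2 the shallowest. Control replicate 1 also stood apart on the second principal component, at 47.0 against -16.8 to 7.80 in the other libraries. All 4 falls were called in each of the 12 fits that left out 1 library, and without both shallowest control libraries. Over those 12 fits the highest edgeR adjusted p was 0.0485 for Jak1, close to the threshold, and 0.0339 for Irf9. It was 0.000651 for Stat2 and 0.000280 for Irf1.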

How the data were processed

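RNA of 12 cultures, 6 control and 6 mimic by the labels, was made into poly(A) libraries and read as 50 bp single-end reads. Per the labels and the study's methods, the authors aligned reads to mm10 with STAR 2.5.2b and counted them per gene with featureCounts (Subread 1.5.1) after FastQC 0.11.5; annotation and strand setting are not given in the sources used here. The deposited raw counts of 48709 genes were used. The normalized table deposited by the authors, a signal per gene of counts over 1 factor a library, served 1 alternative.

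Names and UTRs came from GENCODE M21 on GRCm38, the same build as mm10; 48349 genes were named. Genes with at least 5 counts in 6 of 12 libraries were tested, as in the study, with edgeR 4.0.16 in R 4.3.3 (quasi-likelihood F-test, robust, TMM), tested on simulated data, with Benjamini-Hochberg adjustment over all genes. The standard error is the log2 fold change over the square root of F, and 95% intervals use the t distribution with the degrees of freedom of the test. Alternatives used DESeq2 1.42.0 and limma 3.58.1. Partner genes of the receptors, kinases, STAT and IRF factors could be named; of other lists, the 2 called genes with the largest change and a mean of at least 100 counts. Lifr, Il11ra1, 4 interferon genes, cell type markers, Gm17334, Rnf31, Bcl2l12 and Phrf1 were named after their values were seen. The 9 genes, the lists and the tests were chosen with earlier results of these data known. Of the genes of these lists, 1 is not reported here.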

Additional observations from a re-analysis of the deposited data

Results flagged for a closer look

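In 30 groups of 6 libraries (9 levels and 6 ratios, control and mimic) the lowest and highest library were compared with the nearest other one. In 1 of them, the level of Jak2 in control, 1 library lay far from the rest: replicate 2 had 53.5 CPM, and the next lowest control 61.0 CPM, a gap of 0.898 of the whole range. By chance about 1 in 20 groups, or 1.5 of 30, would stand out in this way. This library was 1 of the shallowest. Without it the difference in the ratio of Jak2 to Jak1 was 0.079, as given above, in place of 0.10.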

How the results depend on the processing

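The count of 4 called genes, all lower, was also found with DESeq2, with its size factors in edgeR, with library totals alone, with limma on the authors' normalized table, with at least 10 counts in all 12 libraries and without any 1 library; it was 3 with no low-count filter and 1 against a minimum fold change of 1.2. That minimum left 0 other pathway genes called higher and 4 lower, and 23 targets lower. Without both shallowest control libraries 11 other pathway genes were called higher. Leaving out 1 library gave 6 to 10 such genes, the 10 without control replicate 1, and 1 to 2 targets called higher. Log2 fold changes that passed no test changed sign there: Ifnar1 ran from -0.013 to 0.0023, Ifngr1 from -0.018 to 0.044, Jak2 from -0.034 to 0.0020 and Irf3 from -0.049 to 0.030, and Irf3 was 0.080 without both shallowest controls. The ratio of Ifngr1 to Ifnar1 ran from -0.022 to 0.063, that of Irf9 to Irf3 from -0.25 to -0.15, that of Irf7 to Irf3 from -0.37 to -0.16 and that of Irf9 to Stat2 from 0.0015 to 0.048; the causes were not tested. Replicate numbers did not pair the libraries, since 0 of 6 correlations of same-numbered libraries were over 0.1 and 0 of 6 control libraries correlated best with their own number; with the replicate number as a block 4 genes were called, all lower. Searching all annotated UTRs of each gene, not the longest alone, also found matches to the seed in 3 genes. Depth limits Irf7 and the interferon genes.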
